A study of Homo sapiens with 6 samples.

Results

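The genes of the BCL2 family, the caspases and the inhibitors of apoptosis were followed in HEK293t cells, a human embryonic kidney line that carries a viral large T antigen, after stable knockdown of the long noncoding RNA linc00598. The set is a list of 36 gene symbols, and its members were found as the probes annotated to those symbols. Of the 36 genes, 35 had at least 1 named probe, with 73 probes in all, and 28 had a probe that passed the detection filter in at least 1 line, on each of its arrays. These 28 were tested among 17225 genes and unnamed probes. BIRC3 was not analysed here, as no probe carried its symbol.

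The cells were 3 stable lines, one with a control shRNA (shCTL) and the other two with an shRNA against linc00598 (shlinc00598#2 and shlinc00598#3). All 3 lines share the HEK293t background, the large T antigen and a stably expressed hairpin. Total RNA of each line was hybridized in 2 replicates to Illumina HumanHT-12 v4 arrays, so that 6 arrays were read, and it is not labelled whether a replicate is a culture of its own or a line is 1 clone. Where the cultures were shared, the p-values measure only the spread between these arrays. There was 1 control hairpin. No probe is named LINC00598, so the depth of the knockdown could not be read from the arrays.

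The labels of the deposited tables disagree. In 4 of the 6 columns of the processed table, the values are those of an array that the sample descriptions tie to another line or replicate. The other table, deposited before normalization, is linked column by column to the samples in their descriptions. It gave the values below, and the processed table by its own column names was an alternative. All values below are log2 intensities after quantile normalization, unless a fold is named. Between 44.1% and 46.8% of the 47321 probes were detected on an array (detection p under 0.05). Replicate 2 differed from replicate 1 in 36.6% of all genes and unnamed probes (limma adjusted p under 0.05). For that reason the comparisons between lines were fitted without and with the replicate number as a block. KRT8, KRT18, VIM, NEFL, NEFM and CDH2, usual for this line, were detected on 6 arrays and PAX2 and LHX1 on 0. The leukocyte and endothelial markers were detected on 0 arrays, whereas the fibroblast gene COL1A1 and the hepatocyte genes ALB and APOA1 were detected on 6 arrays with mean log2 levels of 7.95, 7.54 and 7.62. Of the other fibroblast genes, COL1A2 was detected on 0 arrays, DCN on 2 and LUM on 4. The remaining hepatocyte gene, TTR, was detected on 2.

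As background, mitochondrial apoptosis is set by a balance among BCL2 family proteins. The anti-apoptotic members hold the effectors BAX and BAK1 in check, and the BH3-only proteins relieve that restraint or activate the effectors directly. Once the effectors open the outer mitochondrial membrane, cytochrome c leaves the mitochondria and joins APAF1 and CASP9 in the apoptosome, which starts the caspase cascade. The IAPs bind and inhibit caspases or their upstream complexes, and DIABLO and HTRA2 displace them. The large T antigen binds p53, which in other cells drives the transcription of several members, among them BAX, BBC3, PMAIP1 and APAF1. linc00598 lies downstream of FOXO1, whose protein is a known activator of BCL2L11.

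Under the processing that gave the values below, CASP6 was the 1 member called in a comparison of the lines. CASP6 was called in the fit with the replicate block and not in the fit without it. It encodes an effector caspase that cleaves nuclear lamins. The gene lies at chr4:109664388-109709767 (GRCh38.p14) and is read by 3 detected probes. On the brightest of them, CASP6 had a log2 level of 8.57 and 8.94 on the shCTL arrays of replicates 1 and 2. It had 7.64 and 8.04 on the shlinc00598#2 arrays and 8.57 and 9.05 on the shlinc00598#3 arrays. Both shlinc00598#2 arrays lay below both shCTL arrays (25.4% of all genes had both arrays of this line on 1 side of the control), and the arrays of shlinc00598#3 spanned the same range as the control.

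The difference of shlinc00598#2 from shCTL was -0.91 for CASP6 (1.88-fold lower), with a standard error of 0.24 without the block and 0.10 with it. With the replicate block its limma adjusted p was 0.0454. CASP6 was thus 1 of the 28 members called lower, beside 0.0174% of all genes. Without the block 0 members were called, beside 0% of all genes, and CASP6 alone passed an unadjusted p under 0.05 (1 lower, beside 1.13% of all genes, and 0 higher, beside 0.702%). With the block, 5 members passed it as lower (beside 7.22%), namely BCL2, BCL2L13, BID, CASP6 and PMAIP1, and CYCS as higher (beside 5.85%). In shlinc00598#3 the difference was 0.06, with a blocked adjusted p of 0.865. As the RNA came from bulk cultures, fewer cells with CASP6 transcript and less transcript per cell cannot be told apart.

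Within replicates, CASP6 differed from shCTL by -0.92 and -0.89 in shlinc00598#2 and by 0.01 and 0.12 in shlinc00598#3. The replicates therefore gave nearly the same difference although their levels were 0.41 apart. The level in shlinc00598#3 exceeded that in shlinc00598#2 by 0.97 (adjusted p = 0.0742 with the block), so that the difference between the lines missed the threshold. For the other detected CASP6 probes, ILMN_1659350 and ILMN_1694877, shlinc00598#2 differed from shCTL by -0.42 and -0.52. The same probes differed by 0.02 and -0.29 in shlinc00598#3. All 3 probes were thus lower in shlinc00598#2, and they did not agree on the sign in shlinc00598#3. With the block, the adjusted p of CASP6 in shlinc00598#2 was 0.280 after background correction, 0.0559 under a stricter detection filter and 0.0864 with the probes averaged, and from 0.0502 to 0.219 without any 1 of the knockdown arrays. The arrays with the low CASP6 values stand in processed columns named shlinc00598#3 replicate 1 and shCTL replicate 2, and by those names the difference of shlinc00598#2 from shCTL was 0.45.

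**Figure D1:**
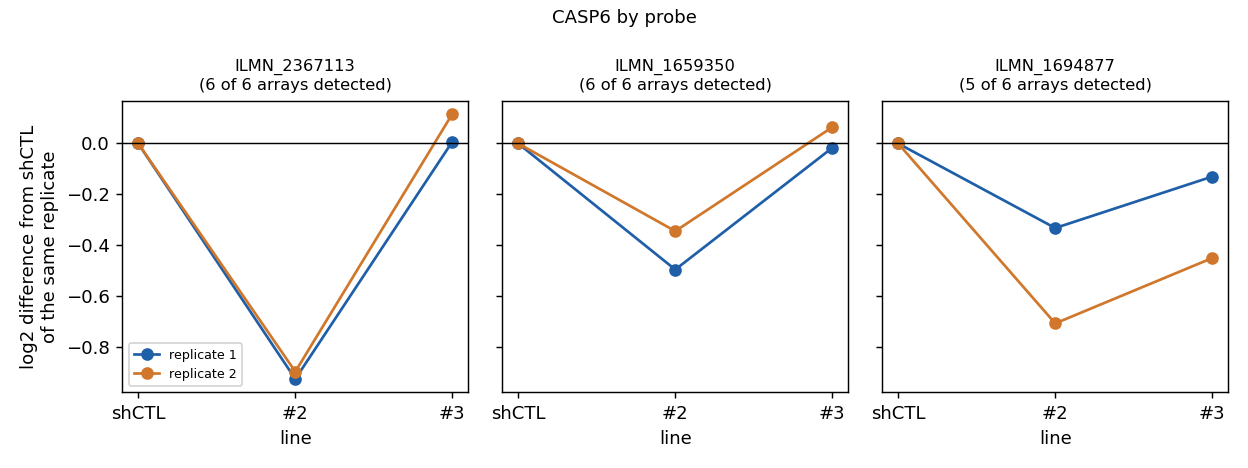
CASP6 by probe. The vertical axis is the log2 difference from the shCTL array of the same replicate, the horizontal axis the line, and each colour is 1 replicate; shCTL is 0 by construction. The shlinc00598#2 points lie below 0 for all 3 probes, at -0.92 and -0.89 for ILMN_2367113, the probe used.

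The 300 bases around the RefSeq start of CASP6 (chr4:109703396-109703695, minus strand, GRCh38.p14) are shown because CASP6 is the member called between the lines. GGGCGG, the core of the GC box bound by SP1 proteins, is in capitals, with 3 matches. RefSeq places this start inside the gene span given above and not at its end.
CASP6: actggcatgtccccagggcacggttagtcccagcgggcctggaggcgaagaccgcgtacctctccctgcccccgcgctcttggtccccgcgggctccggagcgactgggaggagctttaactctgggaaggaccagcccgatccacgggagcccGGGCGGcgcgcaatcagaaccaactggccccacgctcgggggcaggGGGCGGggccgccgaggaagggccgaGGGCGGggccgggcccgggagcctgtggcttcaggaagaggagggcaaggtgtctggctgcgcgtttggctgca
The window runs from 250 bases before to 50 bases after the start. Each motif was searched on both strands, and 30 of the 36 members had a window of this kind. For a member 1 window was used, whereas the shares over all windows were not reduced to 1 window per gene. The member counts and those shares may therefore rest on unlike sets. GGGCGG occurred in 22 of the 30, among them CASP6, and in 45.0% of 35116 such windows of all genes. TATTT, the FoxO1 element altered in the study's reporter, occurred in 8 members and 36.1% of all windows. The 8 were BCL2, BCL2L1, BMF, BCL2L12, BCL2L13, CASP4, CASP8 and APAF1, and CASP6 was not among them. The forkhead motif TGTTTAC occurred in BCL2L11 and no other of these members, and in 3.42% of all windows.

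Among the anti-apoptotic proteins, BCL2, the founding member of the family, differed most from the control. The gene lies at chr18:63123346-63320090 (GRCh38.p14). BCL2 had a log2 level of 9.15 and 8.32 on the shCTL arrays, 8.65 and 7.84 on the shlinc00598#2 arrays and 8.52 and 8.10 on the shlinc00598#3 arrays. The level was lower than in the control of the same replicate on all 4 knockdown arrays, whereas the lines overlapped when the replicates were pooled. The difference from shCTL was -0.49 in shlinc00598#2 and -0.43 in shlinc00598#3, and the mean was -0.46 ± 0.11 (standard error with the block; 0.33 without). That difference was not called (blocked adjusted p = 0.139 for the mean of both lines). Its second detected probe, ILMN_1801119, gave -0.43 for the mean. With 1 array left out, the mean of BCL2 ranged from -0.57 to -0.35 with the block and from -0.87 to -0.04 without it.

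BCL2L1, BCL2L2 and MCL1, the other anti-apoptotic members with a detected probe, had mean differences between -0.05 and 0.06. For each of these 3, the sign was mixed over the within-replicate comparisons on the brightest probe. The second MCL1 probe, ILMN_1756806, was higher in all 4, by 0.11 to 0.31 with a mean of 0.20. BCL2L1 encodes BCL-XL, and MCL1 encodes a short-lived protein on which many dividing cells depend. BCL2L2 encodes BCL-W. Its within-replicate values were 0.19 and 0.22 in replicate 1 and -0.23 and -0.23 in replicate 2 (shlinc00598#2 and shlinc00598#3, respectively), so that the lines shared the sign within a replicate and the replicates had opposite signs. BCL2A1 had no detected probe.

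Of the effectors, which form the pore in the outer membrane, BAK1 differed most. The gene lies at chr6:33572552-33580276 (GRCh38.p14). BAK1 had a log2 level of 7.75 and 7.71 on the shCTL arrays, 8.10 and 7.87 on the shlinc00598#2 arrays and 7.84 and 8.11 on the shlinc00598#3 arrays. All 4 knockdown arrays lay above both control arrays. The mean difference was 0.25 ± 0.11 (standard error with the block) and was not called (adjusted p = 0.372). Of the 27 members detected on all 6 arrays, BAK1 was the 1 for which the knockdown and control arrays did not overlap, beside 9.77% of all such genes. XIAP, not detected in the control, was the other among all 28 (beside 10.7% of all genes).

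BAX, the other main effector, had a mean difference of 0.15, and its probes disagreed in sign (-0.03 on the second). BAX had 10.44 and 11.14 on the shCTL arrays, farther apart than the 10.82 and 10.81 of shlinc00598#2 or the 11.11 and 11.02 of shlinc00598#3. The control arrays alone thus held the spread of BAX. BOK, a less studied effector, had a mean difference of 0.06 with mixed signs.

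Among the BH3-only proteins, the largest difference between lines was in PMAIP1, which encodes NOXA, a partner of MCL1. The gene lies at chr18:59899996-59904305 (GRCh38.p14). PMAIP1 had a log2 level of 12.44 and 10.28 on the shCTL arrays of replicates 1 and 2. It had 12.11 and 9.92 on the shlinc00598#2 arrays and 12.05 and 9.64 on the shlinc00598#3 arrays. The knockdown arrays were the lower ones in each replicate, and replicate 2 lay far below replicate 1 in every line. The difference from shCTL was -0.35 in shlinc00598#2 and -0.51 in shlinc00598#3. For the mean of -0.43, the standard error was 0.10 with the block and 1.01 without. PMAIP1 was not called in either fit (blocked adjusted p = 0.124 for the mean). The second PMAIP1 probe, ILMN_1689525, gave -0.25 for the mean. With 1 array left out, the mean of PMAIP1 ranged from -0.50 to -0.36 with the block, and from -1.51 to 0.65 without it, where the replicates were unbalanced.

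The other BH3-only proteins with a probe that passed the detection filter were BAD, BID, HRK, BBC3 and BCL2L11. BAD, which binds BCL-XL and BCL2, was lower on all 4 knockdown arrays (differences from -0.24 to -0.01). BCL2L11, which encodes BIM, was higher on all 4 by 0.02 to 0.38, with a mean of 0.19. BBC3, which encodes PUMA, had a mean of 0.11 with mixed signs. BID, which caspase-8 cleaves, differed by -0.34 in shlinc00598#2 and by 0.11 in shlinc00598#3, and its 3 detected probes disagreed in sign for the mean. HRK, a BH3-only gene best known from neurons, differed by -0.03 in shlinc00598#2 and by -0.45 in shlinc00598#3. Under the processing that gave these values, none of these 5 genes was called in any comparison of the lines, with or without the block. With the block and median scaling, HRK was called between the knockdown lines, where 250 of all 17225 genes and unnamed probes were called. BIK and BMF had no probe that passed the detection filter.

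BCL2L13 and BCL2L12 are BCL2-like proteins outside these classes. BCL2L13, a receptor for mitophagy at chr22:17628877-17730855 (GRCh38.p14), had a log2 level of 12.77 and 12.14 on the shCTL arrays. It had 12.56 and 11.72 on the shlinc00598#2 arrays and 12.70 and 11.82 on the shlinc00598#3 arrays. Each knockdown array was below the control array of its replicate, with a mean difference of -0.25 ± 0.10 (standard error with the block), and the difference was not called (adjusted p = 0.302). BCL2L12 was higher on all 4 knockdown arrays by 0.03 to 0.14 on its brightest probe. The second probe, ILMN_1752953, was higher in replicate 1 and lower in replicate 2 (-0.06 in shlinc00598#2 and -0.03 in shlinc00598#3). The third, ILMN_1731193, was higher on all 4.

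Of 7 caspases, CASP2, CASP6 and CASP9 had a probe that passed the detection filter. CASP2, an initiator caspase that acts in the PIDDosome, was higher on all 4 knockdown arrays by 0.14 to 0.25. Its 3 detected probes gave means from 0.20 to 0.21, and it was not called (blocked adjusted p = 0.363). CASP9 of the apoptosome was higher on all 4 by 0.02 to 0.04, and its second probe had a mean of -0.09. CASP1, CASP4, CASP8 and CASP10, the inflammatory caspases and the initiators of the death receptors, had no probe kept. Together with BCL2A1, BIK and BMF these are 7 genes without a kept probe. Over the 26 member probes not kept, which include further probes of tested genes, 10 of 156 array values (6.41%) had a detection p under 0.05. No probe of BIK, BMF or CASP10 was detected on more than 1 array, and none of BCL2A1, CASP1, CASP4 or CASP8 on any. Only an upper bound near background thus holds for these 7 genes.

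Of the IAPs, XIAP encodes a direct inhibitor of caspases. The gene lies at chrX:123859708-123913972 (GRCh38.p14). XIAP had a log2 level of 6.93 and 6.85 on the shCTL arrays, 7.06 and 7.02 on the shlinc00598#2 arrays and 7.04 and 7.05 on the shlinc00598#3 arrays. It was not well above background on either control array and passed the detection filter only through the knockdown lines, so that no difference was measured. The lowest detected level of the control arrays was 6.97 in the mean, against knockdown means of 7.04 (1.05-fold). That comparison takes no account of the spread, with a standard error of 0.10 for either line with the block. No minimum difference can therefore be stated for XIAP. BIRC2, an E3 ligase in TNF signalling, had the largest mean difference of the IAPs detected on all 6 arrays, -0.11, and was lower on all 4 arrays (differences from -0.18 to -0.05). Its second probe, ILMN_1768194, was 0.15 higher in shlinc00598#3 replicate 2 and lower in the other comparisons. BIRC5 (survivin, also a mitotic protein) and BIRC6, a large ubiquitin ligase, had means of 0.03 and 0.08 with mixed signs.

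Among the genes of the apoptosome and the IAP antagonists, APAF1 at chr12:98645290-98735433 (GRCh38.p14) differed most. APAF1 had a log2 level of 9.19 and 9.46 on the shCTL arrays, 9.39 and 9.43 on the shlinc00598#2 arrays and 9.35 and 10.28 on the shlinc00598#3 arrays. The value of shlinc00598#3 replicate 2 stood alone above the other 5 arrays. The difference of shlinc00598#3 from shCTL was 0.50 (1.41-fold), with a blocked adjusted p of 0.351. Without that array the difference was 0.03, and with the block as well it was 0.11.

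CYCS, which encodes cytochrome c, was 0.64 higher in shlinc00598#2 than in shCTL in replicate 1 and 0.06 higher in replicate 2. The means of CYCS and HTRA2, a mitochondrial protease, were 0.22 and 0.08, and that of DIABLO was 0.02. Of the death-receptor adaptors, FADD at chr11:70203296-70207390 (GRCh38.p14) had 10.42 and 10.36 on the shCTL arrays, 10.40 and 10.56 on the shlinc00598#2 arrays and 10.44 and 10.54 on the shlinc00598#3 arrays. FADD had thus a mean difference of 0.10 that lay in replicate 2. CFLAR, which encodes the caspase-8 inhibitor c-FLIP, had a mean of -0.03 with mixed signs.

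**Figure D2:**
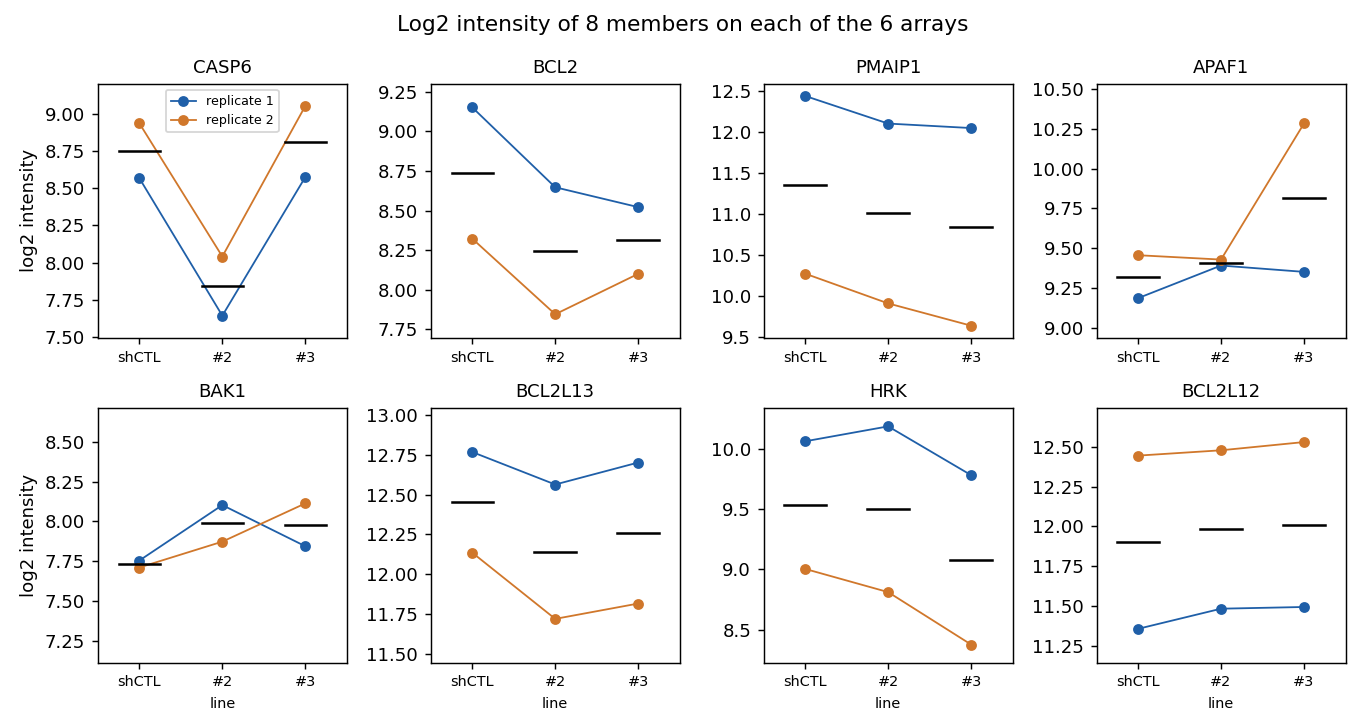
Log2 intensity of 8 members on each of the 6 arrays. In each panel the horizontal axis is the line, the vertical axis the log2 intensity, blue and orange are replicates 1 and 2, and a bar is the mean of a line. The panels have their own vertical scales; PMAIP1 runs from 9.64 to 12.44, CASP6 from 7.64 to 9.05.

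Over the whole set, the members lay close to the rest of the genes. The median difference of the mean of both knockdown lines from shCTL was 0.05 over the 28 members and -0.00047 over all genes. The median size of that difference, without sign, was 0.11 for the members and 0.0979 for all genes. By the study's 1.4-fold criterion, BCL2 and CASP6 were lower in shlinc00598#2 (2 of 28, beside 1.11% of all genes) and 0 members were higher (beside 0.441%). PMAIP1 was lower in shlinc00598#3 (1 of 28, beside 0.946%) and APAF1 was higher (1 of 28, beside 0.662%). These 4 members past 1.4-fold in either line were 2 under median scaling, 1 with the probes of a gene averaged and 3 to 9 with 1 array left out (9 without shCTL replicate 2). CASP6 was also the 1 member above 1.4-fold between the knockdown lines, where shlinc00598#3 was higher (beside 0.505%), and 0 members were lower (beside 0.546%). No member passed 1.4-fold in both lines (beside 0.284% of all genes lower and 0.0581% higher) or in the mean of both (beside 0.627% lower and 0.261% higher).

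Of the 27 members detected on all 6 arrays, 10 had 1 sign in all 4 within-replicate comparisons on the brightest probe (beside 32% of all such genes). BAD, BCL2, BCL2L13, BIRC2 and PMAIP1 were lower (5 members, beside 16.1%), and BAK1, BCL2L11, BCL2L12, CASP2 and CASP9 were higher (5 members, beside 15.9%). With XIAP, which the filter kept only through the lines where it is higher, these were 11 of 28 and 6 higher (beside 31.7% and 15.5% of all genes). The lower members held BCL2 and BIRC2, which inhibit apoptosis, and BAD and PMAIP1, which promote it. On the higher side BAK1, BCL2L11, CASP2 and CASP9 promote it. CASP9 was higher by only 0.02 to 0.04, and its second probe had a mean of -0.09. BCL2L13 on the lower side and BCL2L12 on the higher side were not sorted in this way, so neither side is fully described. The only IAP there was XIAP, for which no difference was measured. Both knockdown lines were set against the same shCTL arrays in these counts, so their signs are not independent.

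Under the processing that gave these values, 0 members were called with limma in shlinc00598#3 or in the mean of both lines, without or with the block. With the block, the shares of all genes called lower were 0.0232% and 0.00581%. At an unadjusted p under 0.05 in the blocked fit, 5 members were lower and 1 higher in the mean of both lines (beside 7.58% and 6.12%), namely BCL2, BCL2L13, CASP6, HRK and PMAIP1 and, higher, CASP2. In shlinc00598#3 alone these were 3 lower (BCL2, HRK and PMAIP1, beside 6.55%) and 1 higher (APAF1, beside 5.11%). Without the block, 0 members passed an unadjusted p under 0.05 in shlinc00598#3 (beside 0.888% lower and 0.679% higher) or in the mean of both lines (beside 1.13% and 0.778%). Between the knockdown lines 0 members were called in either fit (beside 0% of all genes), and at an unadjusted p under 0.05 without the block CASP6 was higher in shlinc00598#3 (beside 0.493%) and 0 members lower (beside 0.691%). With the block CASP6 and BID were higher (beside 3.96%) and HRK lower (beside 4.64%).

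**Figure D3:**
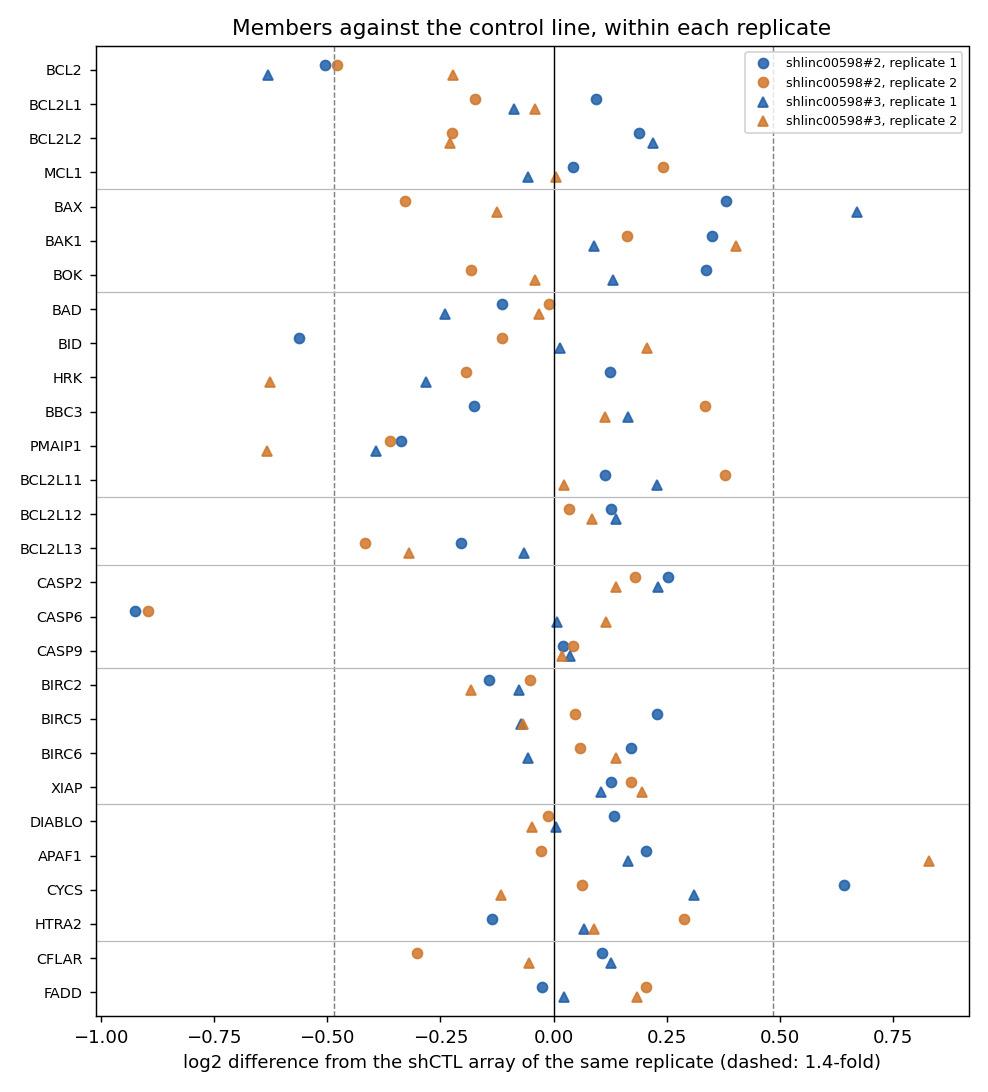
Members against the control line within each replicate. Each point is the log2 difference of 1 knockdown array from the shCTL array of the same replicate, with genes in rows ordered by role, line by shape and replicate by colour; dashed lines mark 1.4-fold. CASP6 in shlinc00598#2 lies at -0.92 and -0.89, and the highest point is APAF1 in shlinc00598#3 replicate 2 at 0.83.

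The median size of the difference between replicates was 0.236 over the 28 members, against 0.11 between the lines, and 0.188 against 0.0979 over all genes. Replicate 2 against replicate 1, with the line as a term, gave 5 members lower (beside 17.8% of all genes) and 6 higher (beside 18.8%), 11 of 28 in all (beside 36.6%, and 45.9% at an unadjusted p). PMAIP1 fell by 2.25 on the log2 scale in replicate 2 (4.77-fold, standard error 0.09, limma adjusted p = 2.79e-06). The next members by size were HRK, BCL2L12 and BCL2L13, of which HRK and BCL2L12 were chosen for description after their values were seen.

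HRK had a log2 level of 10.06, 10.19 and 9.78 on the replicate 1 arrays of shCTL, shlinc00598#2 and shlinc00598#3. It had 9.004, 8.81 and 8.38 on those of replicate 2, and each line was lower in replicate 2. HRK fell by 1.28 (2.43-fold, standard error 0.10, adjusted p = 4.28e-05). BCL2L12 had 11.36, 11.48 and 11.49 on the replicate 1 arrays and 12.45, 12.48 and 12.53 on those of replicate 2. BCL2L12 rose by 1.04 (2.06-fold, standard error 0.08, adjusted p = 5.56e-05), and its 3 arrays of replicate 2 lay above all 3 of replicate 1. Its second probe, ILMN_1752953, gave 11.08, 11.23 and 11.24 in replicate 1 and 12.32, 12.26 and 12.29 in replicate 2.

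BCL2L13 fell by 0.79, BCL2 by 0.68 and DIABLO by 0.35 in replicate 2 (adjusted p = 0.000282, 0.000987 and 0.0104). CASP6, BID, CASP9, CASP2 and BCL2L11 rose by 0.41, 0.37, 0.37, 0.35 and 0.34, with adjusted p from 0.00434 to 0.031. Past 1.4-fold were 4 members lower (beside 8.11% of all genes) and BCL2L12 higher (beside 7.36%). The labels give the replicates a number and no further difference, and no condition of culture, extraction or hybridization can be told apart from it. By the column names of the processed values, 0 members were called, and PMAIP1 differed by -1.07 between the replicates (adjusted p = 1).

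**Figure D4:**
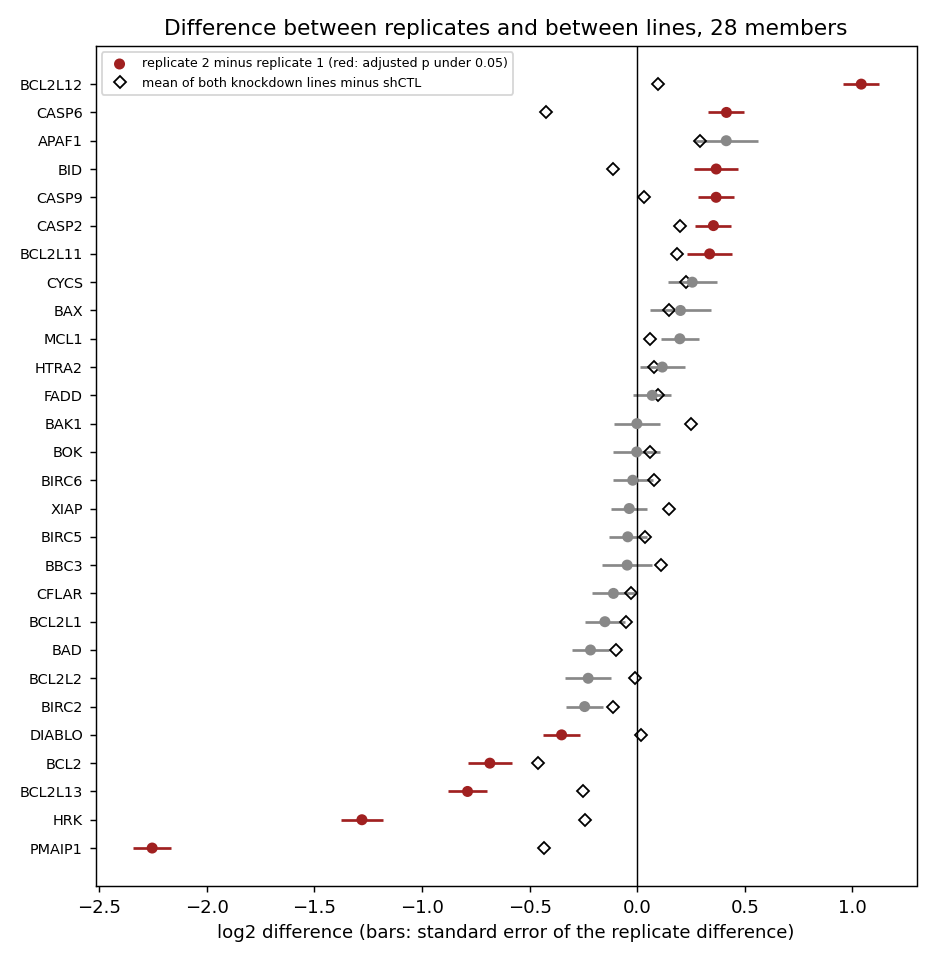
Difference between replicates and between lines for the 28 tested members. The horizontal axis is the log2 difference; circles give replicate 2 minus replicate 1 with bars of 1 standard error, red where the adjusted p was under 0.05, and diamonds the mean of both knockdown lines minus shCTL. PMAIP1 lies at -2.25 and BCL2L12 at 1.04 between replicates, whereas the diamonds lie between -0.46 and 0.29.

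The start regions of PMAIP1 (chr18:59899746-59900045, plus strand) and HRK (chr12:116881392-116881691, minus strand, both GRCh38.p14) are shown because these members fell most in replicate 2. TGACG, the core of the element bound by CREB and ATF factors, is in capitals on the strand that reads CGTCA, with 1 match in each.
PMAIP1: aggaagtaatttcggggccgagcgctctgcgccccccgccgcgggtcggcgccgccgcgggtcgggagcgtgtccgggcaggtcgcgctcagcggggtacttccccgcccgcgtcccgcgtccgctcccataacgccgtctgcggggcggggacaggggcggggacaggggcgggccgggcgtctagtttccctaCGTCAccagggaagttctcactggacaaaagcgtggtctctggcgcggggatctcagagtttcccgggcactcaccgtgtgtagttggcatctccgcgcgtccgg
HRK: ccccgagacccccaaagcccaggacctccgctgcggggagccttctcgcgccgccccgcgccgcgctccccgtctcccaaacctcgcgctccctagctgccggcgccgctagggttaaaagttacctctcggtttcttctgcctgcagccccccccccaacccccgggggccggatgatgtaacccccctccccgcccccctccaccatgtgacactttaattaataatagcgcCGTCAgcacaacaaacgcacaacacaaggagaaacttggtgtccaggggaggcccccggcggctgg
TGACG or its complement occurred in 12 of the 30 members with a window and in 24.6% of the windows of all genes. Of the other carriers, BCL2 fell in replicate 2 and CASP9 rose. BCL2L1, BAX, BAD, BIRC2, BIRC6 and CYCS were not called between the replicates, and BMF and BIRC3 were not tested. A relation of the motif to the replicate difference was not tested. BCL2L12 and BCL2L13, which rose and fell, held no match.

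Other genes of the pathway were read from 5 further lists. For a list of 20 death receptors, ligands and adaptors, 14 genes were tested, and 0 were called in any comparison of the lines with or without the block. These 14 include TANK, which was read in place of the listed TRAF2 through a shared synonym and is a different gene. The ligand TNFSF10 was not among them. The median of the mean differences, TANK included, was -0.05. TNFRSF10B, a receptor for TRAIL, differed by -0.23 and DAXX, a FAS-binding protein, by 0.19 (blocked adjusted p = 0.378 and 0.385). Of 20 mitochondrial partners of the family 17 were tested and 0 called, with a median of 0.03. BNIP3, a mitophagy receptor, differed by -0.27 and BAG6, a chaperone, by -0.20 (blocked adjusted p = 0.258 and 0.384).

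Of 14 executioner caspases and caspase substrates 12 were tested and 0 called, with a median of -0.04. LMNB1, a nuclear lamin that caspases cleave, was higher on all 4 knockdown arrays by 0.19 to 0.36, with a mean of 0.29 (blocked adjusted p = 0.217). DFFA, which holds the apoptotic nuclease in check, differed by -0.27 (blocked adjusted p = 0.347). The 10 regulators of IAP and BCL2 protein turnover had 6 tested and 0 called. Their median was -0.21, with 3 of the 6 genes lower on all 4 arrays and 0 higher (beside 16.1% and 15.5% of all genes).

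The gene of these lists with the smallest blocked p was SEPTIN4 of the turnover list, which gives rise to the XIAP antagonist ARTS. SEPTIN4 had a log2 level of 8.67 and 8.51 on the shCTL arrays, 7.91 and 7.95 on the shlinc00598#2 arrays and 8.49 and 8.22 on the shlinc00598#3 arrays. All 4 knockdown arrays lay below both control arrays (10.7% of all genes had all 4 on 1 side of both). The separation was narrow, with 8.49 in shlinc00598#3 replicate 1 against 8.51 in shCTL replicate 2. The mean difference of SEPTIN4 was -0.45 (blocked adjusted p = 0.12). The difference in shlinc00598#2 was -0.66 (blocked adjusted p = 0.0811). XAF1, which binds XIAP, differed by -0.23 (blocked adjusted p = 0.311). All 4 chromosomal passenger genes, whose proteins act with BIRC5 in mitosis, were tested and 0 called. INCENP and AURKC differed by -0.10 and -0.06 (blocked adjusted p = 0.754 and 0.806).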

How the data were processed

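Intensities of 6 Illumina HumanHT-12 v4 arrays were used. The authors exported average probe intensity, on the linear scale and not yet normalized, and a detection p-value per probe from GenomeStudio 2011.1. The authors also deposited processed log2 values, quantile-normalized (median of 6.89 on every array). The same normalization of the intensities gave these to within 0.00417 when columns were matched by their values. Spearman's rho with the array of the column's own description was 0.925 to 0.941 in the 4 columns that disagree.

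Intensities were quantile-normalized without background correction and put on the log2 scale with limma 3.58.1 in R 4.3.3. A probe was kept where a line had a detection p under 0.05 on each of its arrays (21282 of 47321). Of all probes, 30113 carried 1 symbol, 8 several and 17200 none. The kept probe with the highest mean log2 level represented a gene, and probes with no symbol or several were kept as rows of their own. One limma fit to the 6 arrays (3 residual degrees of freedom) gave the comparisons of the lines, with Benjamini-Hochberg adjustment over all 17225 and a threshold of 0.05. A further fit had the replicate block (2 residual degrees of freedom), since the arrays of a replicate deviated together. The correlations of these deviations across genes were 0.742, 0.760 and 0.827 between the lines, and the first principal component (69.4% of the variance) separated the replicates. The labels give only the number, so the pairing comes from the data.

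The members and lists were chosen with earlier results of these data known, and no list was tested as a set. Values by array are given for members called in a comparison of the lines, for members at least 1.4-fold different in a line or in the mean, for those with 1 sign in all 4 within-replicate comparisons and a mean of at least 1.2-fold, and for the member with the largest mean difference in each role. Of the other lists, up to 2 genes with the smallest blocked p were named. Windows around gene starts and coordinates come from RefSeq (GRCh38.p14), and the motifs were chosen after the values were known. Alternatives were neqc background correction (offset 16), median scaling, the processed values, no or a stricter detection filter (p under 0.01 on all 6 arrays), the mean of kept probes, the block, leaving out each array, and the methods' t-test. Depth on arrays is limited by their number and by signal over background.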

Additional observations from a re-analysis of the deposited data

Results flagged for a closer look

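CASP6, BID and BIRC5 differed from shCTL in opposite directions in the knockdown lines in both replicates, each on its brightest probe. In CASP6 the within-replicate log2 differences were -0.92 and -0.89 in shlinc00598#2 and 0.01 and 0.12 in shlinc00598#3. The difference between the lines was 0.97, with a limma adjusted p of 0.0742 in the blocked fit. BID differed by -0.56 and -0.11 in shlinc00598#2 and by 0.01 and 0.21 in shlinc00598#3, so that the lines were 0.45 apart (adjusted p = 0.349). BIRC5 differed by 0.23 and 0.05 in shlinc00598#2 and by -0.07 and -0.07 in shlinc00598#3, with a difference of -0.21 between the lines (adjusted p = 0.625). Such opposite signs were found in 967 of all genes and unnamed probes (5.61%), and none of these 3 differences between the lines passed the threshold. Other probes did not share the pattern: CASP6 probe ILMN_1694877 was lower in both lines in both replicates, and BIRC5 probe ILMN_1803124 had 1 sign for both lines within each replicate (-0.27 and -0.33, then 0.34 and 0.14). BID probe ILMN_2372413 was 0.25 and 0.23 in replicate 2, and BID probe ILMN_2259495 was -0.25 and -0.19 in replicate 1.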

How the results depend on the processing

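The settings below each change 1 choice, or 1 choice together with the replicate block; the fits that combine the block with another processing choice, the count in either line, the counts over genes detected on all 6 arrays and the replicate 2 against replicate 1 fits without an array were added after the data had been seen. Without the block, 0 members were called in any comparison of the lines under any limma setting. The block gave 1 call in shlinc00598#2, CASP6, and changed no other call between the lines. With the block and median scaling the members called were 1, 1, 1 and 2 in shlinc00598#2, in shlinc00598#3, in their mean and between them (CASP6, PMAIP1, BCL2, and CASP6 with HRK), where 430, 280, 323 and 250 of all genes were called in place of 3, 4, 1 and 0. With the block and no detection filter there was 1 call in shlinc00598#2 and 1 between the knockdown lines, CASP6 in both, and 78, 62, 61 and 28 of all genes were called. The cause of these differences was not tested.

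With 1 array left out, the block gave 0 to 2 calls in shlinc00598#2, 0 to 1 in shlinc00598#3, 0 in their mean and 0 to 1 between the knockdown lines. Without shCTL replicate 1 these were CASP6, HRK and, between the lines, CASP6, where 172, 186, 175 and 185 of all genes were called, and without shCTL replicate 2 CASP6 with CYCS, BAX and CASP6, where 302, 192, 249 and 185 were. The blocked adjusted p of CASP6 in shlinc00598#2 was 0.00509 and 0.00284 without shCTL replicate 1 or 2, 0.219 and 0.11 without shlinc00598#2 replicate 1 or 2, and 0.0502 without either shlinc00598#3 array. Without the block 0 members were called in each of these fits. The median of the members ranged from 0.0168 to 0.0605 without the block and from -0.0156 (without shCTL replicate 1) to 0.0428 with it. The number of members at least 1.4-fold different in both lines was 1 after neqc, and with 1 array left out it was 0 to 5 without the block, with 5 without shCTL replicate 2, and 0 to 1 with it. The methods' t-test, unadjusted, passed 0, 2, 1 and 1 members in the 4 comparisons (beside 3.76%, 3.23%, 4.16% and 3.28% of all genes), and 0 after adjustment.

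By the column names of the processed table, with or without the block, CASP6 differed by 0.45 in shlinc00598#2, by 0.25 in the mean and by -0.41 between the knockdown lines, BCL2L13 by 0.06 and FADD by -0.057 in the mean. By those names, 5 members had 1 sign in all 4 within-replicate comparisons and 0 were called between the replicates, against 9 to 13 without 1 array. Those columns hold other arrays than the descriptions name. Without the block, leaving out 1 array leaves the replicates unbalanced: PMAIP1 then ranged from -1.51 to 0.65 in the mean of the lines (above 0 also at 0.12 and 0.17, without replicate 2 of shlinc00598#2 and of shlinc00598#3) and from -1.72 to 0.69 in shlinc00598#3 (0.57 without shCTL replicate 1), and BCL2L13 from -0.57 to 0.0649. With the block FADD was -0.0016 without shCTL replicate 2. The other 498 values kept their direction and call, or stayed close. Differences of genes near background, such as XIAP, are compressed, and 2 arrays a line limit the precision of every value.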
